A study of Mus musculus with 24 samples.

Results

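Vessels turn vitamin A into retinoic acid, carry it to its nuclear receptors and break it down, and 9 genes for these steps are described here in the ductus arteriosus (DA) and the ascending part of the aorta in mouse embryos of stage E18.5. They encode the retinal dehydrogenases Aldh1a1, Aldh1a2 and Aldh1a3, the cellular binding proteins Crabp1 and Crabp2, the receptors Rara, Rarb and Rarg, and the breakdown enzyme Cyp26b1. They were chosen by symbol, as 9 of the 54752 rows of the deposited count table, and all 9 were among the 16463 genes that passed a filter on low counts and were tested. The main difference lay in Cyp26b1. Its mean level was 16.8 CPM (counts after scaling for library size) in control DA and only 3.02 CPM in DA of Prdm6-deficient embryos, against 2.07 CPM in control aorta and 3.09 CPM in Prdm6-deficient aorta. None of the other 8 genes passed the test in any comparison.

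All embryos were on a C57/Black6 background. Prdm6-deficient embryos carried the genotype Wnt1Cre;PRDM6f/f, in which the Wnt1 promoter drives Cre in neural crest cells, so that cells of other origin in the same vessels keep an intact Prdm6. Of the 7 control DA samples, 5 were PRDM6wt/f, 1 was PRDM6wt/wt and 1 was Wnt1Cre;PRDM6wt/wt, and of the 6 control aorta samples 5 were PRDM6wt/f and 1 was Wnt1Cre;PRDM6wt/wt. There were 5 Prdm6-deficient DA samples, of which replicates 1 and 2 were pools of 2 embryos each, and 5 Prdm6-deficient aorta samples, which makes 23 libraries. The replicate of Prdm6-deficient DA numbered 4 was not analysed here. The 6 control aortas came from embryos that also gave a control DA, and some Prdm6-deficient embryos likewise gave both vessels. Embryo numbers fall into 2 separate runs, which are named first and second series below without the labels calling them batches.

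Each library held 15163974 to 22610547 counts, so that 3 counts, the smallest number taken as detected, stood for 0.135 to 0.201 CPM. Prdm6 was at 84.9 to 128 CPM in control DA and 58.6 to 78.5 CPM in Prdm6-deficient DA, and at 95.6 to 135 CPM in control aorta and 61.9 to 81.2 CPM in Prdm6-deficient aorta, with no overlap in either vessel. The mean was 67.5% of control in the DA and 62.0% in the aorta. Smooth muscle markers were high in every library, with the summed level of 7 genes at 8392 to 24230 CPM. Control aorta replicate 4 had the highest sum of 6 melanocyte markers of its group, 14.8 CPM against a group median of 3.64 CPM.

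Retinol is oxidised in 2 steps, first to retinal by dehydrogenases such as Rdh10 and then, irreversibly, to retinoic acid by the Aldh1a enzymes. Retinoic acid enters the nucleus, where Rar proteins paired with Rxr proteins sit on short direct repeats and switch genes on when the ligand binds. Cyp26 enzymes oxidise retinoic acid and clear it, and Cyp26 genes, Rarb, Crabp2 and Dhrs3 are textbook targets that retinoic acid itself can induce. In the embryo the pathway patterns the heart, the pharyngeal arch arteries and the outflow tract, and Aldh1a2 is typical of mesothelium and epicardium.

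Promoter sequences are shown for the gene with the main difference and for the receptor gene whose promoter holds a repeat of the kind that Rar proteins bind. RefSeq (GRCm38.p6) gave promoter windows for 7 of the 9 genes and not for Aldh1a3 and Crabp2. The 250 bases before each start were searched on both strands for direct repeats of the half-site AGGTCA and its variants, namely AGTTCA as well as GGGTCA and also GGTTCA, with any member of this set repeated in the same direction with 1, 2 or 5 bases between. The Cyp26b1 stretch lies at chr6:84593909-84594060 on the minus strand and is the part of the window before the first annotated exon, with the TATA box sequence TATAAA in capitals. The Rarb stretch lies at chr14:16575507-16575535 on the minus strand, with both half-sites of the repeat in capitals. Its window is overlapped by annotated exons of Rarb and, on the other strand, Gm48162.
Cyp26b1: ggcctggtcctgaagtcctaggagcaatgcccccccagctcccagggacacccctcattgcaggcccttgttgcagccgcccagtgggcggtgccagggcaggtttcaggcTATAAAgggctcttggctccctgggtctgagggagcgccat
Rarb: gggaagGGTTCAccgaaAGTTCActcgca
The Rarb match has 5 bases between its half-sites and runs from 53 to 37 bases before the RefSeq start. A repeat with this spacing was found in 0.0883% of the 32851 promoters in the table, and any of the 3 spacings in 0.426%. No match was found in the windows of the other 6 genes, Cyp26b1 included, and TATAAA, which lies 139 to 134 bases before the RefSeq start of Cyp26b1, was found on either strand in 12.4% of all promoters. The last 98 bases before that start lie in an annotated exon of Cyp26b1 and are not printed, so TATAAA lies nearer to the beginning of that exon. These letters describe the windows searched and say nothing about binding in these vessels.

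**Figure D1:**
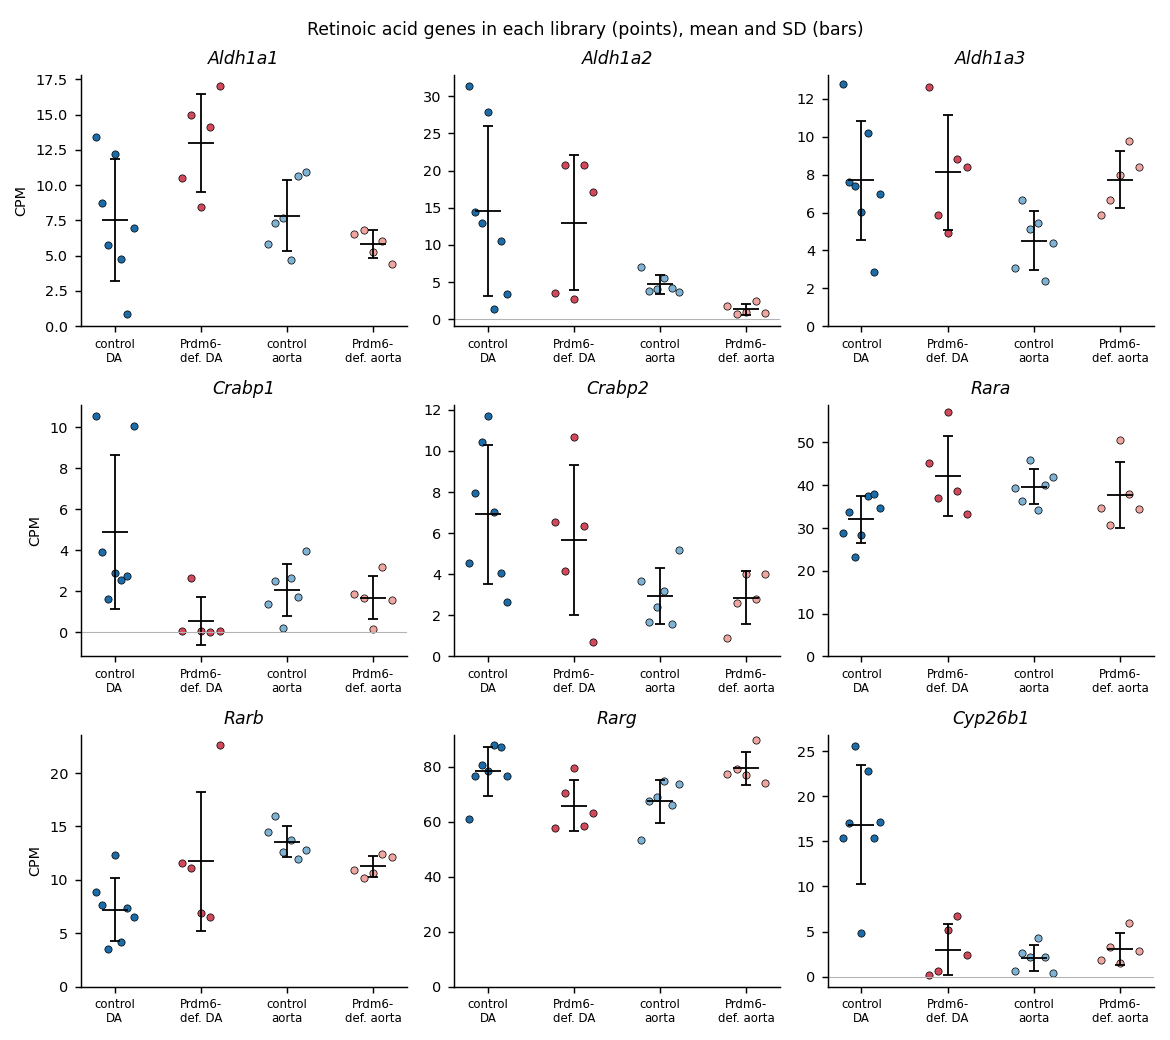
Level of each of the 9 genes in CPM (y axis, from 0) in every library (points) of the 4 groups (x axis), with the group mean and SD as bars. Cyp26b1 was at 4.81 to 25.5 CPM in the 7 control DA libraries and at or below 6.73 CPM in the other 16 libraries, and the points of each of the 9 genes overlap between the DA genotypes.

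The breakdown enzyme showed the clearest difference. Cyp26b1 (ENSMUSG00000063415.12, chr6:84571414-84593908 on mm10, minus strand) was at 15.3, 17.1, 25.5, 4.81, 22.8, 15.3 and 17.1 CPM in control DA replicates 1 to 7. In Prdm6-deficient DA replicates 1, 2, 5, 6 and 7 it was at 0.187, 0.682, 5.13, 6.73 and 2.36 CPM. Thus 6 of the 7 control DA libraries lay above every Prdm6-deficient DA library, control DA replicate 4 fell among them, and the lowest values came from the 2 pooled libraries, 1 of them with only 3 counts. Cyp26b1 fell by 2.47 on the log2 scale in Prdm6-deficient DA (SE 0.61, 95% interval -3.74 to -1.21, adjusted p = 0.00711, edgeR's quasi-likelihood test), to 17.9% of the control mean. In bulk tissue such as this, fewer cells of a type and less RNA per cell cannot be told apart.

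The 2 series gave the same direction. In the first series Cyp26b1 was at 17.1 and 25.5 CPM in 2 control DA and at 0.187 to 6.73 CPM in 3 Prdm6-deficient DA libraries, a log2 fold change of -2.40 (adjusted p = 0.223). In the second series it was at 4.81 to 22.8 CPM in 5 control and at 0.682 and 2.36 CPM in 2 Prdm6-deficient DA libraries, a log2 fold change of -3.30 (adjusted p = 0.0264). Neither p passed the threshold of 0.01 at these sample numbers. The genotypes did not overlap within either series, but they overlapped over all DA libraries. The share of all genes without overlap in groups this small was not counted. The call also depended on single libraries: it was lost without Prdm6-deficient DA replicate 1 (adjusted p = 0.0143), 2 (0.0223) or 7 (0.0210) and without control DA replicate 2 (0.01001), 3 (0.0148), 5 (0.0141) or 7 (0.0114), with log2 fold changes of -2.99 to -2.18 over all 23 fits that left out 1 library. Without the 2 pooled libraries the log2 fold change was -1.83 (adjusted p = 0.0515), and with replicate number as a block it was -2.70 (adjusted p = 0.0126).

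Between the vessels of control embryos Cyp26b1 differed more firmly. Control aorta replicates 1 to 6 were at 0.656, 2.65, 2.21, 4.34, 2.20 and 0.384 CPM, all below the lowest control DA library. The level in control DA was 8.11 times as high, a log2 fold change of 3.02 (SE 0.59, 95% interval 1.81 to 4.23, adjusted p = 0.000631), and the call held in all 23 fits that left out 1 library and in all 14 other alternatives. Without control aorta replicate 4 the log2 fold change was 3.37 (adjusted p = 0.000491). This comparison and the one between DA genotypes share the 7 control DA libraries, so the values are not independent.

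In the Prdm6-deficient aorta Cyp26b1 was at 1.85, 3.34, 1.52, 5.91 and 2.83 CPM, across the range of the control aortas, with a log2 fold change of 0.58 (SE 0.60, 95% interval -0.65 to 1.80, adjusted p = 0.824). The effect of Prdm6 loss in the DA minus that in the aorta was -3.05 on the log2 scale (SE 0.84, adjusted p = 0.0304) and did not pass the threshold of 0.01. Of the other Cyp26 genes, which share this breakdown role, Cyp26a1 (at most 45 counts in any library) and Cyp26c1 (at most 21 counts) did not pass the filter on low counts.

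Smooth muscle and melanocyte markers fell with Cyp26b1 in Prdm6-deficient DA, while the chondrocyte sum rose. Of 7 smooth muscle markers 6 fell in Prdm6-deficient DA, where the sum was 9739 to 11901 CPM, against 13669 to 24230 CPM in control DA, 8392 to 11918 CPM in control aorta and 9294 to 11005 CPM in Prdm6-deficient aorta, with no marker at 0. Control DA replicate 4, the lowest control DA library for Cyp26b1, had a smooth muscle sum of 16958 CPM, inside the control range. It also had the highest control DA sums of mesothelium and epicardium (512 CPM), epithelial (21.3 CPM) and erythroid markers (66579 CPM). Of 6 melanocyte markers 4 fell in Prdm6-deficient DA, from sums of 32.2 to 229 CPM to sums of 2.44 to 4.96 CPM. The sum of 5 chondrocyte markers was 78.0 to 187 CPM in control DA and 226 to 300 CPM in Prdm6-deficient DA, with Matn1 at or below 3 counts in every library, but of the 3 tested Acan rose and Sox9 fell. The part of these cell types in the Cyp26b1 difference was not tested.

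**Figure D2:**
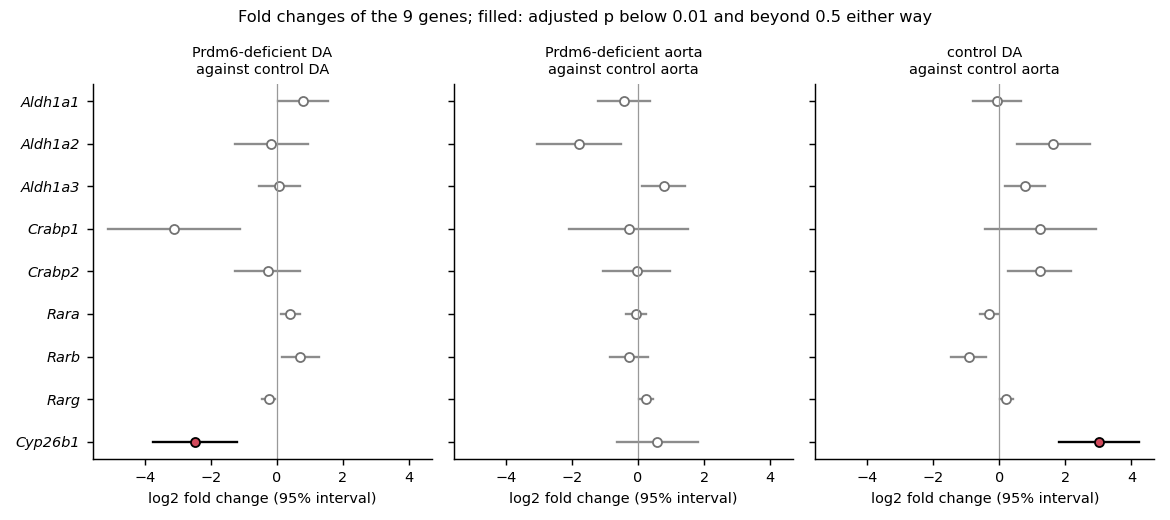
Log2 fold change (x axis) with its 95% interval (line) for each of the 9 genes in 3 comparisons, where filled points mark genes called at adjusted p below 0.01 with log2 fold change above 0.5 or below -0.5. Cyp26b1 is the only filled point, at -2.47 between DA genotypes and at 3.02 between control vessels.

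Across the 9 genes, 1 was called lower in Prdm6-deficient DA, beside 5.43% of all tested genes called in either direction, 2.82% called lower and 2.61% called higher. None of the 9 had DA genotypes that did not overlap, beside 5.66% of all genes. In the aorta 0 of 9 were called by edgeR, DESeq2 or limma-voom beside 2.45% of all genes, and 3 (Aldh1a2, Aldh1a3 and Rarg) had an unadjusted p under 0.05. Between the control vessels 1 was called, higher in the DA, beside 5.36% of all genes called in either direction and 3.16% called higher in the DA. The genotype effect did not differ between the vessels past the threshold for any of the 9, beside 2.65% of all genes in either direction and 1.69% with a lower effect in the DA, and 6 had an unadjusted p under 0.05 (0 were called by DESeq2 or limma-voom). With 9 genes a single call does not set them apart from these shares. An unadjusted p under 0.05 was found for 6 of the 9 between DA genotypes and for 7 between control vessels. The share of all genes at that unadjusted cutoff was not counted, so these numbers, and those for the lists below, have no share to stand beside. The median log2 fold change of the 9 genes was -0.17 in Prdm6-deficient DA, beside 0.01 over all tested genes, and 0.77 for control DA against control aorta, beside -0.00499.

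None of the synthesis enzymes was called between genotypes in the DA. Aldh1a1 (chr19:20492715-20643465), a retinal dehydrogenase, was at 0.836 to 13.4 CPM in control DA with a median of 6.94 CPM, and at 10.5, 14.9, 8.48, 14.1 and 17.0 CPM in Prdm6-deficient DA. All 5 Prdm6-deficient libraries lay above the control median, yet the ranges overlapped and the log2 fold change of 0.79 (95% interval 0.04 to 1.54, adjusted p = 0.182) did not pass. In the aorta it was at 4.68 to 10.9 CPM in control and 4.44 to 6.83 CPM in Prdm6-deficient libraries, a log2 fold change of -0.43 (adjusted p = 0.773).

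Aldh1a2 (chr9:71215789-71296243), the main retinoic acid-producing enzyme of the early embryo, varied widely among libraries of 1 group. It was at 31.4, 14.5, 13.0, 27.9, 1.33, 10.5 and 3.42 CPM in control DA and at 3.55, 20.7, 2.75, 20.7 and 17.2 CPM in Prdm6-deficient DA. Both DA groups thus held libraries below 4 CPM and libraries above 20 CPM, and the log2 fold change was -0.17 (SE 0.54, 95% interval -1.28 to 0.95, adjusted p = 0.908). In control aorta it was at 6.97, 3.8, 4, 5.54, 4.18 and 3.64 CPM and in Prdm6-deficient aorta at 1.75, 0.641, 1.02, 2.47 and 0.878 CPM. The aorta genotypes did not overlap, as held for 6.95% of all tested genes, and the mean in Prdm6-deficient aorta was 28.8% of control. The log2 fold change of -1.79 (SE 0.62, 95% interval -3.07 to -0.52, adjusted p = 0.108) did not pass in the fit over 23 libraries, but in a fit of the aorta libraries alone it did (-1.80, adjusted p = 0.00367). Control DA against control aorta gave 1.63 (SE 0.54, adjusted p = 0.0487).

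Markers of mesothelium and epicardium moved with Aldh1a2 among the DA libraries and less clearly in the aorta. The sum of 8 such markers (Wt1, Upk3b, Upk1b, Msln, Lrrn4, Krt19, Tcf21 and Tbx18) in control DA replicates 1 to 7 was 464, 315, 208, 512, 68.6, 169 and 91.4 CPM, so that the 2 libraries richest in Aldh1a2 were also the 2 richest in these markers and the 2 poorest the 2 poorest. In Prdm6-deficient DA the sums were 125, 348, 63.4, 323 and 352 CPM, again low where Aldh1a2 was low, in replicates 1 and 5. In control aorta replicates 1 to 6 the sums were 200, 124, 123, 80.9, 108 and 96.8 CPM. There replicate 1 was highest for both, but replicate 4, with the lowest sum, had the second highest Aldh1a2. In Prdm6-deficient aorta replicates 1 to 5 the sums were 86.5, 74.3, 45.1, 99.2 and 50.1 CPM. Replicate 4 was highest for both, but Aldh1a2 was lowest in replicate 2, whose sum was the middle value. None of the 8 markers was at 0 throughout, and 0 of 8 were called in any comparison, with 5 of 8 at an unadjusted p under 0.05 between the aorta genotypes (median log2 fold change -1.46) and 7 of 8 between the control vessels (median 1.54). Mesothelial markers were not alone in this: the sum of 7 epithelial markers also moved with Aldh1a2 among the DA libraries. It was 19.6, 14.1, 8.56, 21.3, 3.14, 6.41 and 3.23 CPM in control DA replicates 1 to 7. In Prdm6-deficient DA it was 0.686, 14.6, 0.733, 15.1 and 11.4 CPM, again low in replicates 1 and 5. The part of any of these cells in the Aldh1a2 values was not tested.

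**Figure D3:**
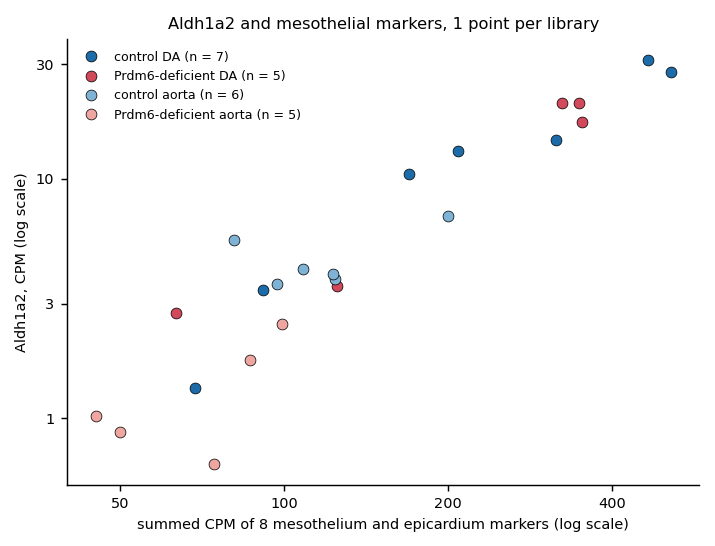
Aldh1a2 in CPM (y axis, log scale) against the summed CPM of 8 mesothelium and epicardium markers (x axis, log scale), 1 point per library and 1 colour per group. Libraries with marker sums over 300 CPM had Aldh1a2 at 14.5 CPM or more, and the 10 libraries with sums below 100 CPM spread from 0.641 to 5.54 CPM, the 5 Prdm6-deficient aortas among them lying at 2.47 CPM or less.

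Aldh1a3 (chr7:66390890-66427517, minus strand), the last of the 3 dehydrogenases, was at 2.84 to 12.8 CPM in control DA and 4.90 to 12.7 CPM in Prdm6-deficient DA, with a log2 fold change of 0.08 (95% interval -0.55 to 0.70, adjusted p = 0.925). It was at 3.08, 6.66, 5.13, 5.45, 2.38 and 4.41 CPM in control aorta and at 5.88, 6.69, 7.99, 9.77 and 8.39 CPM in Prdm6-deficient aorta. In the latter group 4 libraries exceeded every control aorta, and the log2 fold change of 0.78 (SE 0.32, 95% interval 0.13 to 1.43, adjusted p = 0.215) did not pass. Control DA against control aorta gave 0.77 (adjusted p = 0.102).

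Of the binding proteins, Crabp1 (chr9:54764748-54773110), which holds retinoic acid in the cytoplasm, was nearly absent from most Prdm6-deficient DA libraries. It was at 10.5, 3.94, 1.61, 2.88, 2.55, 2.73 and 10.1 CPM in control DA, or 29 to 227 counts. In Prdm6-deficient DA replicates 1, 2, 5, 6 and 7 it had 1, 47, 1, 0 and 1 counts, the 47 counts being 2.67 CPM. Thus 4 of these libraries were below the detection limit of 3 counts, and replicate 2, a pool of 2 embryos, lay within the control range. The log2 fold change was -3.12 (SE 0.97, 95% interval -5.10 to -1.13, adjusted p = 0.0330) and did not pass the threshold.

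That result depended on replicate 2 and on the model. Without replicate 2 the fitted Crabp1 log2 fold change was -6.74 (adjusted p = 3.82e-05), without both pooled libraries it was -6.96 (adjusted p = 0.000298), with replicate number as a block -4.51 (adjusted p = 0.00922) and by DESeq2 -3.13 (adjusted p = 0.00156), all past the threshold. No other alternative and no other fit that left out 1 library passed the threshold. Among those misses were limma-voom (-5.03, adjusted p = 0.0111) and the fit with DA libraries only (-3.12, adjusted p = 0.0924). Others were the fits within the first series (-6.04, adjusted p = 0.0905), within the second (-2.09, adjusted p = 0.245) and with series as a covariate (-3.25, adjusted p = 0.0164). Fitted values against libraries with 0 or 1 count depend on the prior count and are no bound. In the aorta Crabp1 was at 0.205 to 3.98 CPM in control and 0.185 to 3.16 CPM in Prdm6-deficient libraries, with a log2 fold change of -0.29 (95% interval -2.09 to 1.52, adjusted p = 0.973). The difference of the genotype effect between the vessels was -2.83 (SE 1.26, adjusted p = 0.254), and -6.45 without replicate 2 (adjusted p = 0.000808).

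Crabp2 (chr3:87948666-87953376), which passes retinoic acid to Rar proteins, was at 4.55, 7.94, 10.5, 11.7, 7.02, 4.07 and 2.65 CPM in control DA and at 6.55, 4.15, 10.7, 6.32 and 0.687 CPM in Prdm6-deficient DA. Apart from replicate 7, the Prdm6-deficient libraries lay within the control range, and the log2 fold change was -0.28 (95% interval -1.26 to 0.69, adjusted p = 0.798). In the aorta it was at 1.57 to 5.18 CPM in control and 0.901 to 4.02 CPM in Prdm6-deficient libraries. The mean of control DA was 2.34 times that of control aorta, and the log2 fold change was 1.23 (SE 0.46, adjusted p = 0.0940), which did not pass.

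Of the receptors, Rara (chr11:98927818-98974942) was at 28.8, 33.9, 23.1, 28.4, 37.4, 38.0 and 34.7 CPM in control DA and at 45.2, 37.0, 57.1, 38.6 and 33.3 CPM in Prdm6-deficient DA. The groups overlapped, and the log2 fold change of 0.40 (SE 0.14, 95% interval 0.11 to 0.68, adjusted p = 0.0633) did not pass. In the aorta Rara was at 34.2 to 45.9 CPM in control and 30.7 to 50.7 CPM in Prdm6-deficient libraries, a log2 fold change of -0.07 (95% interval -0.37 to 0.23, adjusted p = 0.944).

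Rarb (chr14:16430839-16819156, minus strand), whose promoter repeat is given above, was at 8.87, 7.63, 3.56, 12.3, 4.2, 7.35 and 6.5 CPM in control DA and at 14.4, 16.0, 12.6, 13.7, 12.0 and 12.8 CPM in control aorta. Only control DA replicate 4 reached the aorta range, and the level in control DA was 53.0% of that in control aorta, which gave a log2 fold change of -0.92 (SE 0.26, 95% interval -1.45 to -0.39, adjusted p = 0.0181). That missed the threshold, which DESeq2 (adjusted p = 0.00716), limma-voom (0.00609) and the fit with a replicate block (0.00456) passed, as did the fits without control DA replicate 4 (-1.09, adjusted p = 0.00379) and without Prdm6-deficient DA replicate 7 (-0.92, adjusted p = 0.00538). No other alternative and no other fit that left out 1 library passed the threshold. Among those misses was the fit with the embryo as a block (-0.86, adjusted p = 0.0231), which pairs the vessels of 6 control embryos. Others were the fits with control libraries only (adjusted p = 0.0195), without the Cre-carrying controls (0.0378), with series as a covariate (0.0165) and within the second series (0.0560). In Prdm6-deficient DA Rarb was at 11.6, 11.1, 6.87, 6.5 and 22.6 CPM, 163% of control with a log2 fold change of 0.71 (SE 0.27, 95% interval 0.15 to 1.26, adjusted p = 0.0932). In Prdm6-deficient aorta it was at 10.2 to 12.4 CPM, a log2 fold change of -0.27 (adjusted p = 0.824).

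The Rarb counts carry an uncertainty that the fit does not show. Exons of Rarb share 1793 bases with Top2b, a topoisomerase gene on the opposite strand that reached 183 CPM, and the counting is not stated to use strand. Top2b itself was not called in any comparison, with log2 fold changes of 0.12 between DA genotypes, 0.11 between aorta genotypes and -0.16 between control vessels.

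Rarg (chr15:102234938-102257517, minus strand) was at 60.9, 76.6, 80.7, 78.4, 87.8, 87.2 and 76.7 CPM in control DA and at 57.5, 70.6, 79.7, 58.5 and 63.1 CPM in Prdm6-deficient DA, which gave a log2 fold change of -0.25 (SE 0.10, 95% interval -0.45 to -0.05, adjusted p = 0.102). In the aorta it was at 53.2 to 75.0 CPM in control and 74.2 to 89.8 CPM in Prdm6-deficient libraries, a log2 fold change of 0.24 (SE 0.10, adjusted p = 0.244). The signs differed between the vessels, and the difference of the genotype effects was -0.49 (SE 0.14, 95% interval -0.77 to -0.20, adjusted p = 0.0388), short of the threshold of 0.01. For Rara the same difference was 0.47 (adjusted p = 0.229) and for Rarb 0.98 (adjusted p = 0.180).

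**Figure D4:**
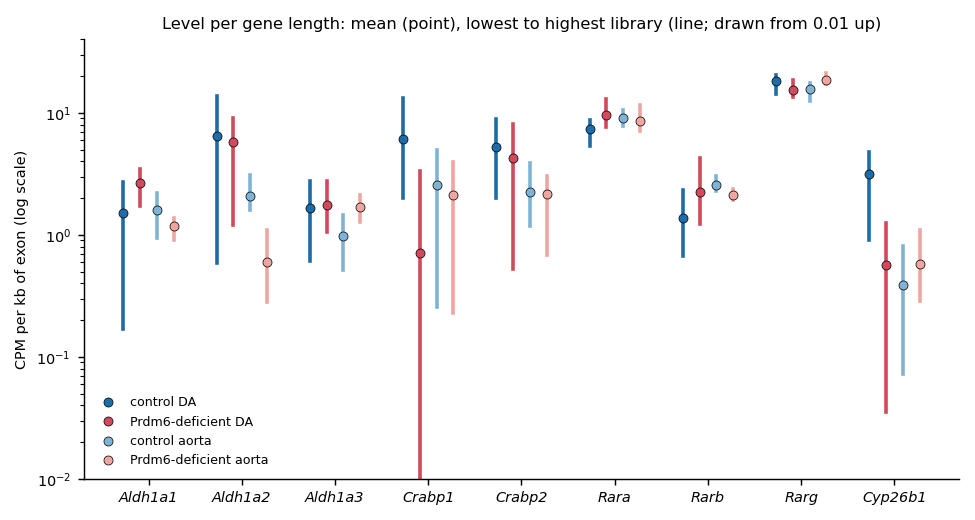
Mean level per gene length (points; CPM per kb of exon, log scale on the y axis) and the lowest to highest library (lines, drawn from 0.01 up) of the 9 genes in the 4 groups. Rarg stands highest in every group, at 15.5 to 18.7 CPM per kb, and Cyp26b1 drops from 3.15 CPM per kb in control DA to 0.387 to 0.578 CPM per kb in the other groups.

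Levels of different genes were compared as CPM per kb of exon. In control DA the order was Rarg (18.4 ± 2.10 CPM per kb, SD, n = 7), Rara (7.34 ± 1.25), Aldh1a2 (6.43 ± 5.03), Crabp1 (6.11 ± 4.68), Crabp2 (5.23 ± 2.55), Cyp26b1 (3.15 ± 1.23), Aldh1a3 (1.67 ± 0.680), Aldh1a1 (1.52 ± 0.882) and Rarb (1.37 ± 0.558), where only the first pair of neighbours did not overlap. In control aorta Rarg (15.8 ± 1.83 CPM per kb, SD, n = 6) and Rara (9.08 ± 0.947) again led without overlap, Rarb came next (2.58 ± 0.282), and Cyp26b1 was last (0.387 ± 0.269). Cyp26b1 was also last in Prdm6-deficient DA (0.564 ± 0.530 CPM per kb, SD, n = 5) and in Prdm6-deficient aorta (0.578 ± 0.324, n = 5). Below the leading receptors every pair of neighbours overlapped, in each of the 4 groups, save Rara with the gene after it in both aorta groups. Scaled by the longest transcript instead, Rarg and Rara kept the lead in every group and the order below them changed, with Aldh1a2 in place of Cyp26b1 as the last gene of Prdm6-deficient aorta (0.596 CPM per kb).

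Beyond these 9 genes, a list of 80 other genes of the pathway was read, of which 64 were tested. In Prdm6-deficient DA 1 rose and 4 fell, beside 2.61% and 2.82% of all genes, and the median log2 fold change was -0.01, beside 0.01 over all genes. In Prdm6-deficient aorta 5 rose and 0 fell, with 1.63% of all genes called higher and 0.826% lower. Between control vessels 9 were higher and 2 lower in the DA, beside 3.16% and 2.19% of all genes. Some genes are on the list because retinoic acid is known to change them in other tissues, so their change here is no measure of retinoic acid.

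Among 27 genes that handle retinol and retinal, 18 were tested. Rdh10, which oxidises retinol to retinal, was at 15.8 to 33.9 CPM in control DA, at 11.3 to 17.5 CPM in Prdm6-deficient DA and at 9.60 to 14.7 CPM in control aorta. It fell by 0.72 on the log2 scale with Prdm6 loss in the DA (SE 0.18, adjusted p = 0.00738) and in control DA was 1.01 above control aorta (SE 0.17, adjusted p = 0.000111). Dhrs3, which turns retinal back into retinol, was at 63.3 to 87.4 CPM in control DA, but at 39.2 to 56.1 CPM in Prdm6-deficient DA and 36.7 to 47.7 CPM in control aorta, so that control DA overlapped with neither. It fell by 0.61 with Prdm6 loss (SE 0.11, adjusted p = 0.000249) and in control DA was 0.83 above control aorta (SE 0.10, adjusted p = 1.54e-06). In the aorta 0 of the 18 were called, 2 had an unadjusted p under 0.05, and the log2 fold changes were 0.23 for Rdh10 and -0.32 for Dhrs3.

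The Rdh10 call in the DA was the less firm of the pair. It was lost without any 1 of control DA replicates 1, 3, 5, 6 and 7 or any 1 of the 5 Prdm6-deficient DA replicates (adjusted p up to 0.0295), and in 6 of 14 other alternatives, while its log2 fold change stayed between -0.81 and -0.62 over the fits that left out 1 library. The call of Dhrs3 held in all 23 of those fits.

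A further list of 6 genes held retinoid-oxidising enzymes and carriers, and 4 of them were tested. Whether Cyp1b1 makes or breaks down retinoic acid in these vessels was not tested. Cyp1b1, an oxidase of steroids and retinoids, was at 289 to 589 CPM in control DA, at 130 to 248 CPM in Prdm6-deficient DA, 68.7 to 166 CPM in control aorta and 273 to 308 CPM in Prdm6-deficient aorta. It moved in opposite directions in the vessels: it fell by 1.25 in the DA (SE 0.21, adjusted p = 9.26e-05) and rose by 1.33 in the aorta (SE 0.21, adjusted p = 8.81e-05), and the difference of -2.58 passed the test (SE 0.29, adjusted p = 2.45e-06). Fabp5, a fatty acid-binding protein that can also carry retinoic acid, was at 37.7 to 125 CPM in control DA and 106 to 214 CPM in Prdm6-deficient DA, and rose by 0.91 (SE 0.22, adjusted p = 0.00536). That call was lost without Prdm6-deficient DA replicate 1, 2 or 7 or control DA replicate 3 or 7 (adjusted p up to 0.0261).

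None of 15 receptor partners, corepressors and coactivators, such as the Rxr and Ncor genes, was called in any comparison by edgeR or by any of the alternatives, DESeq2 included, and all 15 were tested. Their unadjusted p was under 0.05 for 1 gene in the DA, 3 in the aorta and 3 between control vessels. Their median log2 fold change was -0.06 in the DA, 0.11 in the aorta and 0.04 between control vessels.

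Of 32 genes known to respond to retinoic acid, 27 were tested. In Prdm6-deficient DA Hoxa5, a patterning gene, fell by 1.29 (SE 0.26, adjusted p = 0.00107), from 43.3 to 99.6 CPM in the controls down to 17.3 to 40.2 CPM. In Prdm6-deficient aorta Hoxa3 (0.67), Rai14 (0.63), Nr2f2 (0.51) and Tgm2 (0.50) rose on the log2 scale (adjusted p = 0.000249, 0.00106, 0.00766 and 0.000907). Nr2f2 and Tgm2 stood at the fold limit of 0.5. Nr2f2 lost its call without control aorta replicate 1, 2, 3, 4 or 6 or Prdm6-deficient aorta replicate 1, 2, 3 or 5 (log2 fold change down to 0.47, adjusted p up to 0.0278). Tgm2 lost it by the fold limit alone in 11 of 23 fits, those without control aorta replicate 1, 4 or 6, Prdm6-deficient aorta replicate 1, 2 or 4, control DA replicate 1, 2 or 5 or Prdm6-deficient DA replicate 2 or 7 (log2 fold change down to 0.45, adjusted p up to 0.00548).

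The same list differed most between the control vessels. Higher in control DA were Hoxb5 (log2 fold change 2.87, adjusted p = 0.00312), Hoxa5 (2.55, adjusted p = 7.55e-08), Hoxa4 (1.86, adjusted p = 1.73e-06), followed by Hoxb3, Hoxb4 and Tgm2. Lower were Nr2f1, an orphan nuclear receptor (-1.25, adjusted p = 0.00142), and Zfp703. Hoxb5 was at 7.58 to 19.3 CPM in control DA and 0.202 to 3.64 CPM in control aorta, and its call was lost without control aorta replicate 3 (adjusted p = 0.0109). It overlaps Hoxb5os on the other strand, from which its reads may not be told apart. Such overlaps were not searched for the other genes of this list, so they may be affected as well. The genotype effect differed between the vessels for Tgm2 (-0.82, adjusted p = 0.000190), as for Cyp1b1.

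**Figure D5:**
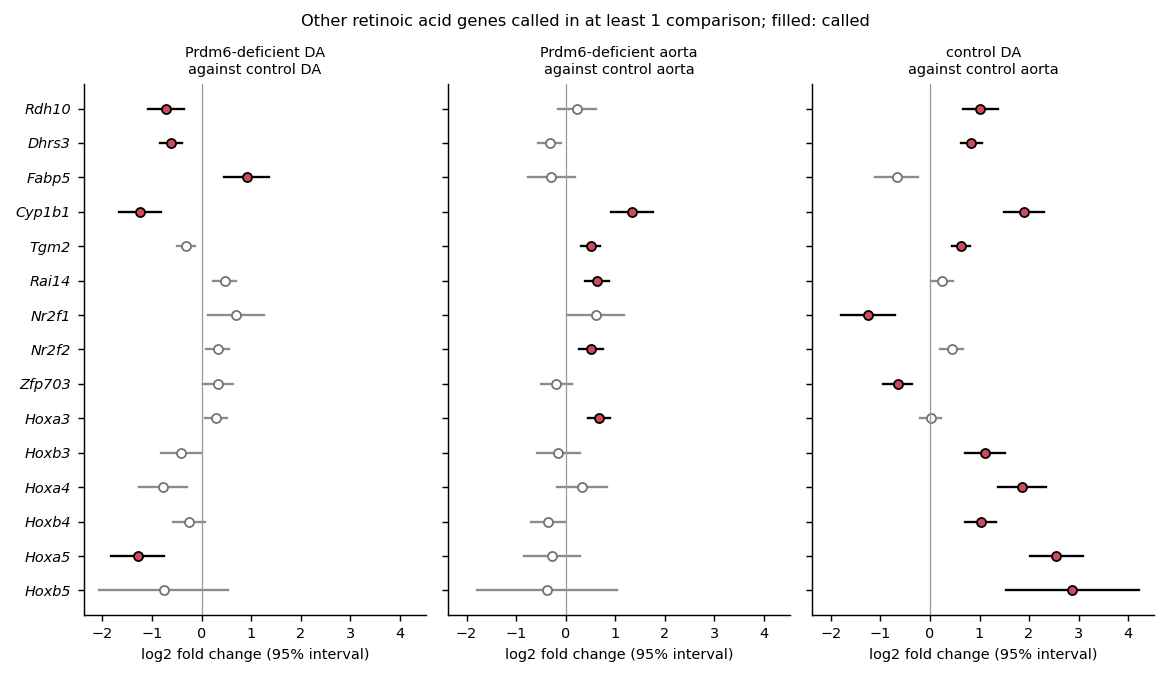
Log2 fold change (x axis) with its 95% interval (line) of the 15 other retinoic acid genes called in at least 1 of 3 comparisons, where filled points are called. Cyp1b1 lies at -1.25 between DA genotypes and at 1.33 between aorta genotypes, and Rdh10, Dhrs3 and Hoxa5 fall with Prdm6 loss in the DA and exceed the aorta level in control DA.

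The genes whose pattern over the 23 libraries was most like that of Cyp26b1 were A730049H05Rik, Egln3 and Pianp. Likeness was the root mean square difference of the log2 CPM values, each centred on its gene, among the 12978 tested genes whose average log2 CPM was 1 or more. It was 0.973, 0.997 and 0.998, beside a median of 1.79 over those genes. Egln3, an oxygen-dependent prolyl hydroxylase, had means of 414 CPM in control DA, 39.1 CPM in Prdm6-deficient DA, 62.5 CPM in control aorta and 58.1 CPM in Prdm6-deficient aorta. Pianp had means of 44.4, 8.06, 7.29 and 6.78 CPM and A730049H05Rik of 3.79, 1.87, 0.966 and 1.62 CPM in the same order.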

How the data were processed

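RNA-Seq counts of 23 of the 24 labelled libraries were used, grouped by the sample titles. The authors filtered reads with the FASTX-Toolkit (quality 20 or more in 90% of a read's bases), removed adapters with tagdust, aligned reads to mm10 with STAR and quantified genes with RSEM, using a GENCODE annotation they call version 20, and the deposited table holds expected counts from RSEM, not normalized. Versions of STAR and RSEM are not given in the sources used here. Expected counts were rounded before testing, and 0 columns were left unused. Reads that fit several genes are shared out by RSEM.

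Gene symbols and coordinates came from GENCODE M21 on mm10, where 53861 of 54752 identifiers matched with their version and 54723 without it. CPM values were scaled by TMM, and the table gives no length-normalized values, so CPM per kb used the union of a gene's exons.

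Tests used edgeR 4.0.16 in R 4.3.3 (filterByExpr, TMM, quasi-likelihood F test, 1 mean per vessel and genotype, all 23 libraries) with Benjamini-Hochberg adjustment over 16463 genes. Calls needed an adjusted p below 0.01 with log2 fold change above 0.5 or below -0.5, and the difference of genotype effects at an adjusted p below 0.01. The SE is the log2 fold change divided by the square root of F. DESeq2 1.42.0 and limma-voom (limma 3.58.1) were alternatives, with other scalings and filters, unrounded counts, a replicate block, series as a covariate, and libraries left out. In simulated data with 200 genes changed in the DA and 15982 tested, edgeR recovered 52% of 2-fold and 80% of 4-fold changes with 2 false calls. The limit of 3 counts covers counting error only. The 95% intervals of fold changes and the p-values rest on the spread between libraries, estimated over the 4 groups together. They treat libraries as independent, although some come from the same embryo and 2 are pools. Tables and plots were made with pandas 2.3.3 and matplotlib 3.10.9 in Python 3.11.15.

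The 9 genes and all gene and marker lists were chosen with earlier results of these data known. Some genes of the pathway lists are not reported here. Named genes are the 9 members, Prdm6, other pathway genes called in any comparison (values for at most the 4 with the largest change per list and comparison) and the 3 genes most like each member called. Cyp26a1, Cyp26c1 and Top2b were named after their values were seen.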

Additional observations from a re-analysis of the deposited data

Results flagged for a closer look

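In control DA replicate 1 Rarg was at 60.9 CPM, the lowest of 7 libraries and far from the other 6, which lay at 76.6 to 87.8 CPM. In Prdm6-deficient DA replicate 2 Crabp1 was at 2.67 CPM, the highest of 5 libraries, while the other 4 lay at 0 to 0.0623 CPM. These 2 came from 36 groups of values tested by Dixon's rule, which chance alone meets in about 1 of 20 groups.

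The effect of Prdm6 loss differed between the DA and the aorta, by edgeR's test of the difference itself, for 2 pathway genes. For Cyp1b1 the effect in the DA minus that in the aorta was -2.58 on the log2 scale (SE 0.29, adjusted p = 2.45e-06), with every Prdm6-deficient DA library below and every Prdm6-deficient aorta library above its controls. For Tgm2 the difference was -0.82 (SE 0.13, adjusted p = 0.000190). The markers of smooth muscle fell in the same DA libraries, and their part in these differences was not tested.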

How the results depend on the processing

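Counts of all genes called stayed within 1.5 times their main values in the 44 values from other alternatives and the 92 with 1 library left out. Fits within 1 series, of 1 vessel, of controls only or with the embryo as a block were not part of that check. Of the 9 retinoic acid genes, the number called in Prdm6-deficient DA went from 1 to 2 by DESeq2 and to 0 without the Cre-carrying controls, within the first series, within the second series and with DA libraries only, and ranged from 0 to 1 when 1 library was left out. In Prdm6-deficient aorta it went from 0 to 1 with aorta libraries only. Between the control vessels it went from 1 to 2 by DESeq2, by limma-voom and with a replicate block (range 1 to 2 with 1 library left out). For the difference of genotype effects it went from 0 to 1 without the pooled libraries (range 0 to 1). Cyp26b1 in the DA lost its call in 6 of 14 other alternatives (adjusted p = 0.00128 to 0.223), though its log2 fold change stayed at -2.47 without the Cre-carrying controls (adjusted p = 0.0126) and -2.48 with DA libraries only (adjusted p = 0.0151). The cause was not tested.

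The sign changed in 6 other alternatives, all far from the threshold: Aldh1a3 in the DA without the pooled libraries (-0.0627) and within the second series (-0.13), Aldh1a2 in the DA with a replicate block (0.28) and within the second series (0.35), Crabp2 in the aorta with total counts only (0.00808), and Crabp1 in the aorta with series as a covariate (0.57). With 1 library left out, log2 fold changes of both signs were found in the DA for Aldh1a2 (-0.40 to 0.14), Aldh1a3 (-0.14 to 0.24) and Crabp2 (-0.64 to 0.00501), in the aorta for Crabp1 (-0.65 to 0.00327) and Crabp2 (-0.19 to 0.19), between control vessels for Aldh1a1 (-0.27 to 0.14), and for the difference of effects in Crabp2 (-0.60 to 0.0490). Scaled by the longest transcript, 17 of 36 levels per length moved by more than 1 SD.

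Replicate numbers did not pair the genotypes: residual correlations of libraries sharing a number were -0.05 to 0.13 in the DA and -0.03 to 0.03 in the aorta. With the replicate block Cyp26b1 in the DA was at -2.70 (adjusted p = 0.0126) and Crabp1 at -4.51 (adjusted p = 0.00922). Control vessels of the same embryo correlated at -0.02 to 0.08 (6 pairs), and the animal block changed no call among the 9 genes.

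Depth and sample number limit the low and variable genes. At 5 against 7 DA libraries the 95% interval of the Aldh1a2 difference ran from -1.28 to 0.95 on the log2 scale. Simulated 2-fold changes were called in 52% of cases, but in genes drawn at random among the expressed ones. That share is therefore no rate for genes as variable as Aldh1a2. Crabp1 had fewer than 3 counts in 4 Prdm6-deficient DA libraries, which is below what these depths can measure.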

Other observations

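Other cell type markers were summed per library beside the retinoic acid genes. The sum of 7 endothelial markers was 705 to 974 CPM in control DA and 800 to 1173 CPM in Prdm6-deficient DA, and in the aorta 582 to 932 CPM and 920 to 1162 CPM, with Cldn5 higher in Prdm6-deficient DA and Tek, Emcn and Tie1 higher in Prdm6-deficient aorta. The sum of 7 leukocyte markers was 123 to 243 CPM in control aorta and 71.5 to 112 CPM in Prdm6-deficient aorta, with 0 of 7 called and 6 of 7 at an unadjusted p under 0.05. The sum of 7 adventitial fibroblast markers was 922 to 2314 CPM in control DA and 1549 to 2441 CPM in Prdm6-deficient DA, where Lum rose and Scara5 fell. The sum of 8 neuron markers was 6.84 to 27.4 CPM in control DA and 18.8 to 44.3 CPM in Prdm6-deficient DA, and in the aorta 19.6 to 34.0 CPM and 41.6 to 84.9 CPM, with Elavl4 higher with Prdm6 loss in both vessels, 5 of the 8 tested and Chat at or below 3 counts throughout. The sum of 6 Schwann cell markers was 174 CPM in control DA replicate 7 and 20.5 to 40.7 CPM in the other 6 control DA libraries, all 6 below the 58.0 to 119 CPM of Prdm6-deficient DA, with 0 of 6 called and 4 of 6 at an unadjusted p under 0.05. Cardiomyocyte markers (6 genes, 17.9 to 1394 CPM over all libraries), epithelial markers (7 genes, 0.634 to 21.3 CPM) and erythroid markers (6 genes, 13161 to 137645 CPM) had 0 genes called by edgeR in any comparison. The numbers at an unadjusted p under 0.05 in the DA, in the aorta and between control vessels were 1, 0 and 3 of 6 for cardiomyocytes, 0 of 2 tested throughout for epithelium and 0 of 6 throughout for erythroid cells. For the difference of genotype effects between the vessels, 6 of 6 erythroid markers had an unadjusted p under 0.05 (median 1.52 on the log2 scale).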
